A study of Mus musculus with 8 samples.

Results

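The 10 genes described here encode enzymes that make serine, break threonine down to glycine and carry carbon units on folate. They were chosen by name (Tdh, Gcat, Gldc, Phgdh, Psat1, Psph, Shmt1, Shmt2, Mthfd1 and Mthfd2), all 10 were found among the 24354 genes listed, and all 10 passed the filter on low values with 13239 genes in all. Transcripts were measured by bulk poly-A RNA sequencing in 8 mouse libraries, 2 from each of 4 groups. Embryonic stem cells (ESCs) were the E14 line, labelled wild type, kept in serum with LIF on inactivated embryonic fibroblasts (feeder cells). Neural stem cells (NSCs) were OG2+/- ROSA+/- cells, which carry an Oct4-driven GFP and a ubiquitous lacZ reporter, and grew in N2 medium with EGF and FGF2 on gelatin without feeder cells. Extended pluripotent stem cells (EPSCs) were a C57BL/6 line, labelled wild type, derived from embryos at the cleavage stage and sampled at passage 15. They grew on feeder cells in N2B27-LCDM (LIF, CHIR99021, dimethindene maleate and minocycline). Hybrid cells were a tetraploid line at passage 10 that came from fusing EPSCs with the NSCs by polyethylene glycol and was picked for its Oct4-GFP, and they grew in the EPSC medium on feeder cells. Both libraries of a group came from 1 line, so the p-values measure only the spread between repeated libraries. Line, medium and feeder cells cannot be told apart from the group, except that EPSCs and hybrid cells shared medium and feeder cells. Between EPSCs and hybrid cells, ploidy and passage (15 and 10) also went with the group.

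Serine is made from a glycolytic intermediate by Phgdh, Psat1 and Psph, acting in that order. Serine hydroxymethyltransferase (Shmt1 in the cytosol, Shmt2 in mitochondria) turns serine into glycine and hands the released carbon to folate, and the enzymes Mthfd1 (cytosol) and Mthfd2 (mitochondria) oxidise and interconvert the folate-bound carbon that feeds nucleotide synthesis. Mouse ESCs are known for a second source of glycine, the mitochondrial threonine dehydrogenase Tdh, whose product is split into glycine and acetyl-CoA by Gcat. Gldc is the decarboxylase of the glycine cleavage system, which passes a carbon of glycine to folate.

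FPKM values (fragments per kilobase of transcript per 1000000 mapped fragments), which compare genes and libraries per unit of length, summed to 600674 to 653796 in the ESC, EPSC and hybrid libraries and to 415240 and 415412 in the NSC libraries. The depth derived from the steps between low values was 22.1 to 32.6 per library, in units of 1000000 fragments. Because the sums differ, each test of a gene against NSCs was repeated with every library scaled to the same sum. Directions that turned are given beside the result. Summed levels, percentages of the mean of EPSCs and NSCs, and counts of genes outside both parental groups were not scaled. In bulk samples, fewer cells of a type and less RNA per cell cannot be told apart. The pluripotency markers summed to 4949 to 5919 FPKM in the ESC, EPSC and hybrid libraries and to 119 and 123 FPKM in the NSC libraries, where 6 of the 10 were listed at 0 in both. Sox2 alone made up 116 and 120 FPKM of the NSC sums. The 9 neural stem cell markers summed to 4380.0 and 4432 FPKM in the NSC libraries and to 12.7 to 28.0 FPKM in the others (these lists were not chosen to tell ESCs, EPSCs and hybrid cells from one another).

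The 150 bases upstream of a RefSeq start of 4 of the genes are shown (the first of 2 for Psat1), each standing for a branch of the pathway whose level is compared below: Psat1 (serine synthesis), Shmt2 (mitochondria), Shmt1 (cytosol) and Gldc (glycine cleavage). They were read 5′ to 3′ from RefSeq on GRCm38.p6, on the minus strand, and none of the 4 stretches overlaps an annotated exon. The starts are those of RefSeq; GENCODE M21 has longer gene spans for Psat1 and Shmt1, so that their stretches lie inside those spans. Capitals mark CCAAT on either strand (ATTGG on the other), or, in Shmt2, GCATGCGC on both strands, which overlap there. Psat1 lies at chr19:15925060-15925209, Shmt2 at chr10:127522445-127522594, Shmt1 at chr11:60811266-60811415 and Gldc at chr19:30175442-30175591.
Psat1: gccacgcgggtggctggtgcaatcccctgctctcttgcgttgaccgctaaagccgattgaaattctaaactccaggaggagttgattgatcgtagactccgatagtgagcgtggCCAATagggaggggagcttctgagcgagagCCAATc
Shmt2: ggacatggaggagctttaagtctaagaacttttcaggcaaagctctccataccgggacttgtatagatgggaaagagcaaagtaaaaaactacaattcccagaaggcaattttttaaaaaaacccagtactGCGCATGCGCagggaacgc
Shmt1: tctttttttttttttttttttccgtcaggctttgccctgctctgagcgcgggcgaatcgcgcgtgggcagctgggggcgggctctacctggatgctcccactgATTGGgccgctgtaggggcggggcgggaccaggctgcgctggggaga
Gldc: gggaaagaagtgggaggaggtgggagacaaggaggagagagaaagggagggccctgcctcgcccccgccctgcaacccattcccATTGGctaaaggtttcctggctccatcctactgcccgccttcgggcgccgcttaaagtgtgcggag
Promoter windows were at hand for 9 of the 10 genes (Tdh is named only). CCAAT occurred on either strand in the 250 bases upstream of 7 of these 9 genes, against 33.8% of 32851 such windows (35.7% of those of tested genes), and GCATGCGC occurred in Shmt2 alone, against 2.26% (4.28% of those of tested genes). Psat1 had 2 windows, and its second (chr19:15924623-15924872) held no CCAAT. The count is per gene and the shares are per window. Both motifs were chosen after the values were seen. Of the motifs chosen earlier, CACGTG lay within the 300-base window of Gcat (7.15% of all windows, 9.96% of those of tested genes) and TGATGNAA lay in none of the 9 (3.97% of all windows, 2.17% of those of tested genes). These are matches of letters only.

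**Figure D1:**
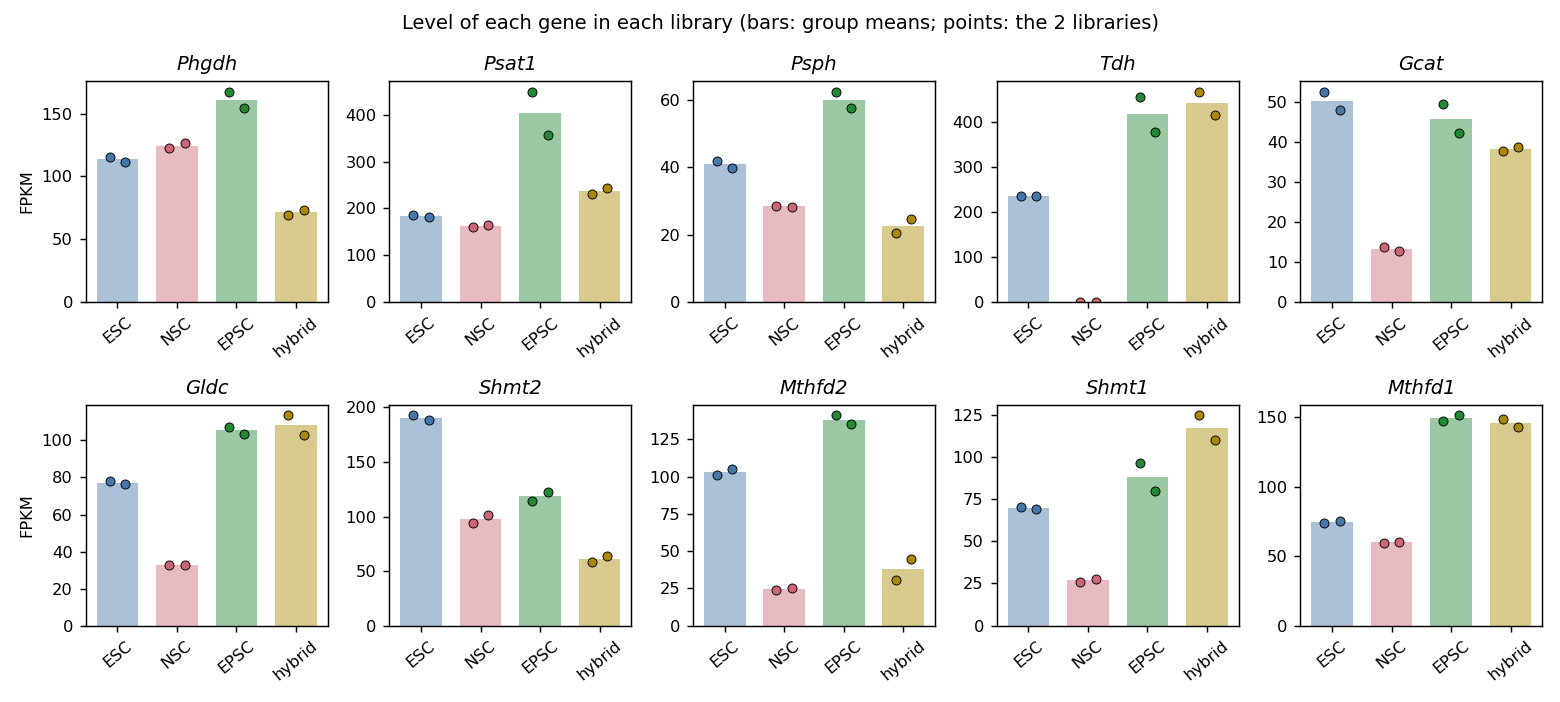
FPKM of each gene in each library, with the mean of the 2 libraries as a bar and the libraries as points. Phgdh, Psph and Shmt2 sit lowest in hybrid cells, Shmt1 sits highest there, and Tdh is at 0 in both NSC libraries.

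The 3 enzymes of serine synthesis were all lower in hybrid cells than in EPSCs. Phgdh (chr3:98313170-98339990, GRCm38), which commits carbon to serine, measured 168 and 155 FPKM in EPSCs and 69.5 and 73.2 FPKM in hybrid cells. NSCs gave 122 and 127 FPKM and ESCs 115 and 112 FPKM, so that both hybrid libraries lay below all 6 others. The mean was 161 ± 9.0 FPKM in EPSCs and 71.4 ± 2.64 FPKM in hybrid cells (SD, n = 2), a 2.26-fold difference with a log2 difference of −1.16 ± 0.06 (SE; limma with Benjamini-Hochberg adjustment, adjusted p = 6.711e-05). Psat1 (chr19:15904678-15947337), the aminotransferase of the pathway, measured 450.1 and 358 FPKM in EPSCs, 231 and 244 FPKM in hybrid cells, 161 and 165 FPKM in NSCs and 186 and 181 FPKM in ESCs. It was 1.7-fold lower in hybrid cells than in EPSCs (log2 difference −0.75 ± 0.10, limma adjusted p = 0.00133), and the groups did not overlap. Psph (chr5:129765558-129787449), the phosphatase that releases serine, measured 62.5 and 57.6 FPKM in EPSCs, 20.6 and 24.7 FPKM in hybrid cells, 28.6 and 28.3 FPKM in NSCs and 42.0 and 39.8 FPKM in ESCs. It was 2.65-fold lower in hybrid cells than in EPSCs (log2 difference −1.37 ± 0.09, limma adjusted p = 0.000114) and, as with Phgdh, lowest in the hybrid libraries. The summed level of the 3 genes as deposited was 625 ± 77.5 FPKM in EPSCs and 332 ± 14.8 FPKM in hybrid cells (SD, n = 2). It was 316 ± 5.65 FPKM in NSCs and 338 ± 7.47 FPKM in ESCs. These sums were not scaled, and the NSC libraries had lower total FPKM. Under scaling to the same sum, log2 differences of hybrid cells against NSCs were −1.42 (Phgdh), −0.08 (Psat1) and −0.94 (Psph). Those of ESCs against NSCs were −0.68, −0.39 and −0.03. Psph overlaps Cct6a on the opposite strand. The libraries were made with a stranded kit, but the strand setting of the counting is not given in the sources used here. Cct6a measured 303 FPKM in both ESC libraries, 164 and 179 in NSCs, 488 and 441 in EPSCs and 440.5 and 364 in hybrid cells.

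Tdh and Gldc were not called between hybrid cells and EPSCs, and all 3 genes of this branch were lower in NSCs. Tdh (chr14:63492347-63509092) was listed at 0 in both NSC libraries, where 3 fragments would give 0.0624 and 0.0619 FPKM, a limit that covers counting error only. It measured 236 and 235 FPKM in ESCs, 455 and 377 FPKM in EPSCs and 467 and 415 FPKM in hybrid cells. The hybrid and EPSC libraries overlapped, and the log2 difference between them was 0.09 with a 95% interval of −0.13 to 0.31 (limma adjusted p = 0.489). Gldc (chr19:30098447-30175429) measured 78.0 and 76.2 FPKM in ESCs, 32.8 and 32.5 FPKM in NSCs, 107 and 104 FPKM in EPSCs and 114 and 103 FPKM in hybrid cells. Its log2 difference between hybrid cells and EPSCs was 0.04, with an interval of −0.10 to 0.17. Gcat (chr15:79030874-79038353) measured 52.5 and 47.9 FPKM in ESCs, 13.6 and 12.8 FPKM in NSCs, 49.3 and 42.1 FPKM in EPSCs and 37.7 and 38.8 FPKM in hybrid cells. Both hybrid libraries lay below both EPSC libraries, but the log2 difference of −0.25 (interval −0.45 to −0.05) missed the threshold (limma adjusted p = 0.0502) and passed it under 5 of 13 other settings. The other 3 proteins of glycine cleavage, Amt, Gcsh and Dld, were not called between hybrid cells and EPSCs. Amt, the aminomethyltransferase, measured 74.1 and 68.1 FPKM in EPSCs and 65.3 and 60.5 FPKM in hybrid cells.

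Both mitochondrial folate enzymes were lower in hybrid cells than in EPSCs, whereas neither cytosolic one was called lower. Shmt2 (chr10:127517123-127522444) measured 193 and 188 FPKM in ESCs, 94.1 and 101 FPKM in NSCs, 114 and 123 FPKM in EPSCs and 58.7 and 63.8 FPKM in hybrid cells. The hybrid libraries were the lowest of all 8, 1.93-fold below the EPSC mean (log2 difference −0.94 ± 0.07, limma adjusted p = 0.000144). Mthfd2 (chr6:83305691-83325908) measured 101 and 105 FPKM in ESCs, 24.1 and 25.3 FPKM in NSCs, 141 and 135 FPKM in EPSCs and 30.5 and 44.9 FPKM in hybrid cells. At 3.67-fold below EPSCs (log2 difference −1.87 ± 0.15, limma adjusted p = 0.000236), it had the largest difference of the 10 genes, and its 2 hybrid libraries also differed most from each other relative to their mean. Shmt1 (chr11:60788104-60811718) measured 70.4 and 69.3 FPKM in ESCs, 25.9 and 27.7 FPKM in NSCs, 96.4 and 79.7 FPKM in EPSCs and 125 and 109.7 FPKM in hybrid cells. It was higher in hybrid cells (log2 difference 0.41 ± 0.10, limma adjusted p = 0.0139), a call that was lost without EPSC replicate 2 (adjusted p = 0.0545), without hybrid replicate 1 (adjusted p = 0.0636) and with only EPSCs and hybrid cells in the fit (adjusted p = 0.0794). Mthfd1 (chr12:76255298-76319803) measured 74.3 and 75.6 FPKM in ESCs, 59.88 and 59.96 FPKM in NSCs, 148 and 152 FPKM in EPSCs and 149 and 143 FPKM in hybrid cells, with a log2 difference between the latter of −0.03 (interval −0.14 to 0.08). Shmt2 overlaps Ndufa4l2, and Shmt1 overlaps Smcr8, on the opposite strand. Ndufa4l2 measured 81.2 and 81.7 FPKM in ESCs, 0.0456 and 0.415 in NSCs, 5.07 and 5.19 in EPSCs and 0.277 and 0.291 in hybrid cells, so that, like Shmt2, it was lower in hybrid cells than in EPSCs. Its part in the Shmt2 values was not tested. Smcr8 measured 14 to 15.6 FPKM in EPSCs and 22.8 to 26.2 FPKM in hybrid cells.

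In hybrid cells against EPSCs, 5 of the 10 genes were lower (Phgdh, Psat1, Psph, Shmt2 and Mthfd2), 1 was higher (Shmt1) and 4 did not pass the test (Tdh, Gcat, Gldc and Mthfd1). Across all genes tested, 21.9% were called lower, 22.5% higher and 44.4% in either direction. By fold, 3 of the 10 (Phgdh, Psph and Mthfd2) were called lower by over 2-fold, against 1.35% of all genes. Under the fold rule of the study's methods, taken as a mean FPKM over 3 and a ratio over 3, only Mthfd2 was lower, against 0.551% of all genes, and none of the 10 was higher, against 1.04%. All 5 lower calls held under each alternative setting, scaling included.

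**Figure D2:**
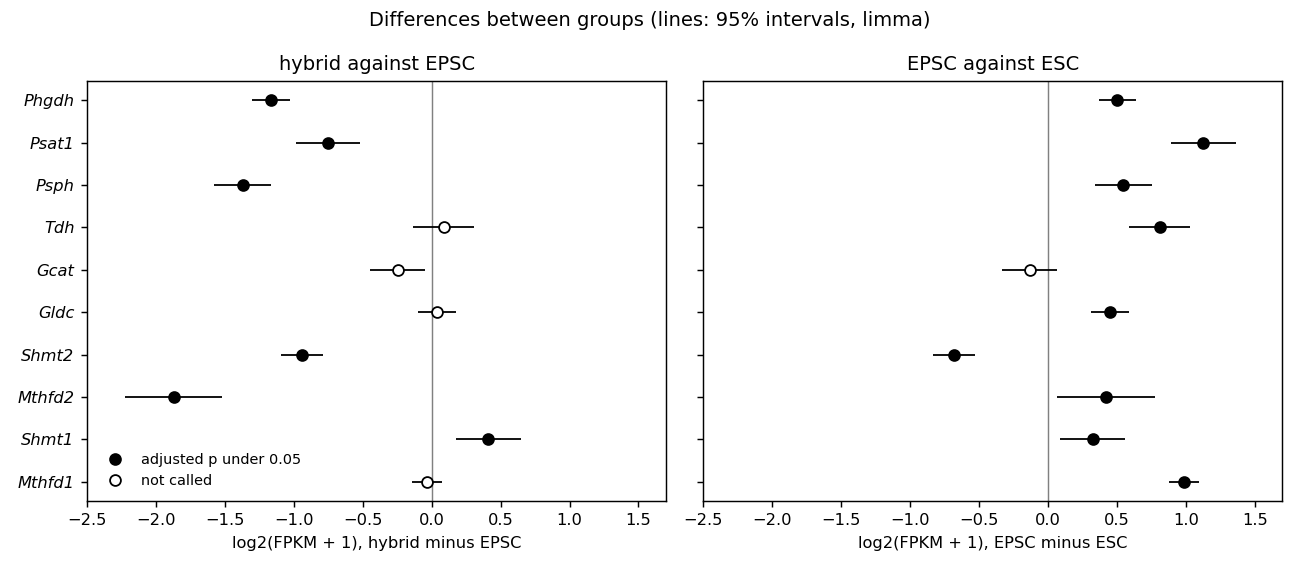
Log2 differences of FPKM + 1 for each gene, hybrid cells minus EPSCs on the left and EPSCs minus ESCs on the right, with 95% intervals from limma. Filled points passed an adjusted p of 0.05. The serine synthesis genes and the mitochondrial folate genes Shmt2 and Mthfd2 lie below 0 on the left, and only Shmt2 passed below 0 on the right; both panels use the same EPSC libraries.

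Within each library, the ratio of the mitochondrial to the cytosolic enzyme was lowest in hybrid cells. The ratio of Shmt2 to Shmt1 was 2.74 and 2.71 in ESCs, 3.64 in both NSC libraries, 1.18 and 1.54 in EPSCs and 0.471 and 0.582 in hybrid cells, the one group where Shmt1 exceeded Shmt2. The ratio of Mthfd2 to Mthfd1 was 1.36 and 1.39 in ESCs, 0.402 and 0.421 in NSCs, 0.957 and 0.893 in EPSCs and 0.205 and 0.314 in hybrid cells. Between hybrid cells and EPSCs, the log2 ratios differed by −1.37 and −1.87 without overlap, at an exact permutation p of 0.333, the smallest 2 libraries against 2 can give (two-sided). The ratio of Tdh to Phgdh was 2.05 and 2.11 in ESCs, 2.71 and 2.43 in EPSCs and 6.71 and 5.66 in hybrid cells. The ratio of Gldc to Gcat was 1.49 and 1.59 in ESCs, 2.40 and 2.53 in NSCs, 2.17 and 2.46 in EPSCs and 3.01 and 2.65 in hybrid cells. In 17 such tests, the groups overlapped in 1, Gldc to Gcat between EPSCs and NSCs (log2 difference −0.09, exact permutation p = 0.667). Overlap was not counted for ratios of other gene pairs, so this count shows nothing particular to these genes.

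**Figure D3:**
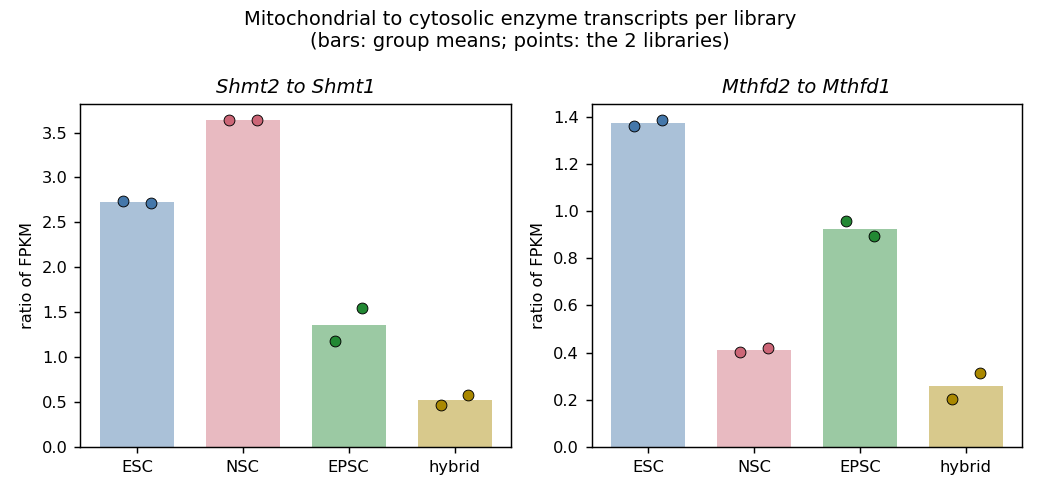
Ratio of FPKM of the mitochondrial to the cytosolic enzyme in each library, with the group mean as a bar. Hybrid libraries have the lowest values in both panels, 0.471 and 0.582 for Shmt2 to Shmt1 and 0.205 and 0.314 for Mthfd2 to Mthfd1.

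Between the parental cells, all 10 genes were called in the values as deposited, near the share of all genes called, and 9 under quantile normalization (Shmt2, limma adjusted p = 0.0895). As deposited, all 10 were higher in EPSCs than in NSCs, where 86.2% of all genes were called, 45.2% higher and 41.0% lower, and 8 of the 10 were higher by over 2-fold, against 23.0% of all genes. Under scaling to the same sum, 5 were, against 15.8% of all genes. Phgdh (log2 difference 0.37) and Shmt2 (0.28) had the smallest differences, and with every library scaled to the same sum they turned to −0.24 and −0.33. Gcat was 3.46-fold, Gldc 3.23-fold, Shmt1 3.28-fold and Mthfd2 5.61-fold higher in EPSCs, and with Tdh these passed the fold rule (5 of 10, against 12.3% of all genes in this direction), of which Tdh and Mthfd2 (2 of 10) passed it under scaling, against 9.90% of all genes. The fitted log2 difference of Tdh was 8.70 and depends on the constant added to FPKM (7.12 with 3 and 12.02 with 0.1), so no fold is given.

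Against NSCs, 7 of the 10 were higher in hybrid cells and 3 lower (Phgdh, Psph and Shmt2), where 86.5% of all genes were called, 44.5% higher and 42.0% lower. Phgdh was 1.74-fold and Shmt2 1.59-fold lower in hybrid cells than in NSCs (limma adjusted p = 5.159e-06 and 3.219e-05). Under scaling to the same sum, the log2 differences moved from −0.79 to −1.42 for Phgdh, from −0.66 to −1.28 for Shmt2 and from −0.32 to −0.94 for Psph. The higher calls of Psat1 (log2 difference 0.54) and Mthfd2 (0.57) turned to −0.08 and −0.03 under scaling to the same sum. Without NSC replicate 1, Psph (limma adjusted p = 0.0515) and Mthfd2 (limma adjusted p = 0.0571) were no longer called. The log2 difference of Mthfd2 was 0.84 without hybrid replicate 1 and 0.30 without hybrid replicate 2, and that of Psph −0.20 and −0.45. The fold rule held for Tdh, Gldc and Shmt1, against 12.7% of all genes in this direction, and for Tdh alone under scaling.

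Compared with the mean of EPSC and NSC FPKM as deposited, hybrid cells were at 212% for Tdh, 204% for Shmt1, 157% for Gldc, 139.5% for Mthfd1 and 130% for Gcat. They were at 83.8% for Psat1, 56.7% for Shmt2, 51.2% for Psph, 49.96% for Phgdh and 46.3% for Mthfd2. On the log2 scale, 5 of the 10 were called above the midpoint of the parents and 4 below it, while Psat1 was not called (limma adjusted p = 0.287), and 77.2% of all genes were called (38.7% above and 38.5% below). Psat1 was called below it without EPSC replicate 2 (limma adjusted p = 0.00994), under scaling to the same sum (−0.42, 0.000793) and under quantile normalization (−0.38, 0.00145). Mthfd2 lay below it by −0.65, by −0.38 without hybrid replicate 1 and by −0.92 without hybrid replicate 2. In the values as deposited, both hybrid libraries lay outside both parents for 4 genes. They lay below for Phgdh, Psph and Shmt2 (16.2% of all genes lay below) and above for Shmt1 (18.7% lay above). On a scale where NSCs are 0 and EPSCs 1, the 8 genes with a parental log2 difference of at least 1 had a median position of 0.915. Tdh (1.01), Gldc (1.02) and Mthfd1 (0.974) sat at the EPSC end, Gcat at 0.855 and Shmt1 at 1.25. Psat1 (0.417), Mthfd2 (0.233, with 0.122 and 0.344 in the 2 hybrid libraries) and Psph (−0.307, with −0.425 and −0.189) lay lower. Under scaling, Psat1, Psph and Mthfd1 no longer met the parental difference of 1, Mthfd2 turned to −0.0186, and the 5 genes that met it (Tdh, Gcat, Gldc, Shmt1 and Mthfd2) had a median of 1.01.

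Between the pluripotent cells, 8 of the 10 genes were higher in EPSCs than in ESCs (33.7% of all genes), 1 was lower (Shmt2, 27.3% of all genes called lower) and Gcat was not called (log2 difference −0.13, interval −0.34 to 0.07). With 1 library left out, the difference of Gcat ranged from −0.25 to −0.02. Of all genes, 61.0% were called. Psat1 was 2.21-fold, Mthfd1 2.00-fold and Tdh 1.77-fold higher in EPSCs (limma adjusted p = 8.67e-05, 6.485e-06 and 0.000293). Shmt2 was 1.61-fold lower (log2 difference −0.68 ± 0.07, limma adjusted p = 0.000126), and its libraries did not overlap. Phgdh, Psph and Gldc were higher by 1.42-fold, 1.47-fold and 1.37-fold. Shmt1 (limma adjusted p = 0.0251) lost its call without EPSC replicate 1 (0.126) and without either ESC library (0.0934 and 0.111). Mthfd2 (limma adjusted p = 0.0431) lost it without any one of these 4 libraries (0.0962 to 0.165). The call of Shmt1 was also lost with only EPSCs and ESCs in the fit (0.0502), and that of Mthfd2 without the filter on low values (0.0819), under scaling (0.0801), under quantile normalization (0.17) and without the trend in eBayes (0.0517). Gcat was called lower without EPSC replicate 1 (limma adjusted p = 0.0417) and under scaling (limma adjusted p = 0.0461). No gene of the 10 passed the fold rule between EPSCs and ESCs, against 2.36% of all genes in each direction.

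In ESCs, 8 of the 10 genes were higher than in NSCs and none was called lower, where 84.7% of all genes were called, 42.8% higher and 41.9% lower. The differences were 4.17-fold for Mthfd2, 3.79-fold for Gcat, 2.61-fold for Shmt1, 2.36-fold for Gldc and 1.95-fold for Shmt2. Phgdh (log2 difference −0.13, limma adjusted p = 0.0632) and Psat1 (0.16, limma adjusted p = 0.157) did not pass the test. Besides scaling, 1 of the 13 alternative settings ended the higher call of Mthfd1. Under scaling to the same sum, Phgdh (−0.68), Psat1 (−0.39) and Mthfd1 (0.32 as deposited, −0.23 scaled) were called lower in ESCs, and Psph (0.51 as deposited) moved to −0.03. Of all 13239 genes, 11385 were then called, 3890 of them higher (34.17% of the calls) and the rest lower. The fold rule held for Tdh, Gcat and Mthfd2, against 11.7% of all genes, and for Tdh alone under scaling.

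The genes nearest to Tdh in pattern, by Euclidean distance over 8 libraries on mean-centred log2(FPKM + 1), were Nanog (distance 1.04), Mylpf (1.11) and Tdgf1 (1.22). Nanog, a pluripotency factor, measured 0.296 and 0.155 FPKM in NSCs and 307 to 352 FPKM in the other libraries. The nearest to Shmt2, the member that differed least between the parents as deposited (Phgdh under scaling), were Ero1l (distance 0.198), Phf10 (0.215) and Gabbr1 (0.421). Ero1l, an oxidase of the endoplasmic reticulum, measured 28.1 and 27.7 FPKM in ESCs, 13.6 and 14.4 in NSCs, 16.3 and 17.8 in EPSCs and 7.43 and 7.55 in hybrid cells.

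In wider lists of the pathway, counts in hybrid cells against EPSCs are read against all genes tested, of which 21.9% were called lower and 22.5% higher. ATF4 is a transcription factor known to activate amino acid synthesis genes. Of ATF4 and 9 of its known targets outside the 10 genes, 7 were lower in hybrid cells and none higher, with a median log2 difference of −0.98 against 0 over all genes tested. Atf4 itself measured 556 and 524 FPKM in EPSCs, 250.1 and 276 FPKM in hybrid cells, 109.4 and 115 FPKM in NSCs and 159 and 162 FPKM in ESCs (hybrid cells minus EPSCs −1.04 ± 0.06, limma adjusted p = 9.886e-05). Nupr1, a stress-response gene with the largest difference of the list on the log2(FPKM + 1) scale, measured 202 and 208 FPKM in EPSCs and 33 and 56.7 FPKM in hybrid cells (log2 difference −2.22 ± 0.28, limma adjusted p = 0.00106). Of 14 tested transporters of serine, glycine and threonine (17 listed), 9 were lower and 2 higher (median −0.47). The glycine transporter Slc6a9 measured 5.62 and 5.15 FPKM in EPSCs and 0.704 and 1.12 FPKM in hybrid cells (log2 difference −1.75 ± 0.11, limma adjusted p = 0.000119). Sfxn3, a sideroflexin, was the transporter most raised (2.09 and 2.41 against 3.93 and 4.35 FPKM; log2 difference 0.66, limma adjusted p = 0.0013).

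The list of serine use outside the folate cycle had 15 tested genes (18 listed), among them the tRNA synthetases Gars, Tars and Tars2, which use glycine or threonine. In this list, 7 were lower in hybrid cells (Gars and Tars among them) and 1 higher (median −0.20), against the same 21.9% and 22.5% of all genes. Gars, the glycyl-tRNA synthetase, was lower by −1.02 ± 0.06 on the log2 scale (limma adjusted p = 9.858e-05), and Serinc3 was higher by 0.38. Of 19 tested genes of the folate cycle and transport (20 listed), 2 were lower and 3 higher (median −0.02). Mthfd1l, the mitochondrial synthetase that releases formate, measured 54.0 and 53.5 FPKM in ESCs, 28.0 and 27.9 in NSCs, 43.8 and 41.8 in EPSCs and 23.2 and 22.8 in hybrid cells, lowest in hybrid cells as Shmt2 was (hybrid cells minus EPSCs −0.87 ± 0.05, limma adjusted p = 9.858e-05). Aldh1l1, a cytosolic folate dehydrogenase, was higher by 0.49. Of 10 tested genes of the methionine cycle (14 listed), 4 were lower and 2 higher (median −0.14). Gnmt was lowest (−1.03, at 2.49 and 1.74 against 0.305 and 0.746 FPKM) and Mtrr highest (0.54). Of 13 genes of purine synthesis, 2 were lower and 3 higher (median 0.12), with Pfas highest (0.71) and Gmps lowest (−0.38).

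**Figure D4:**
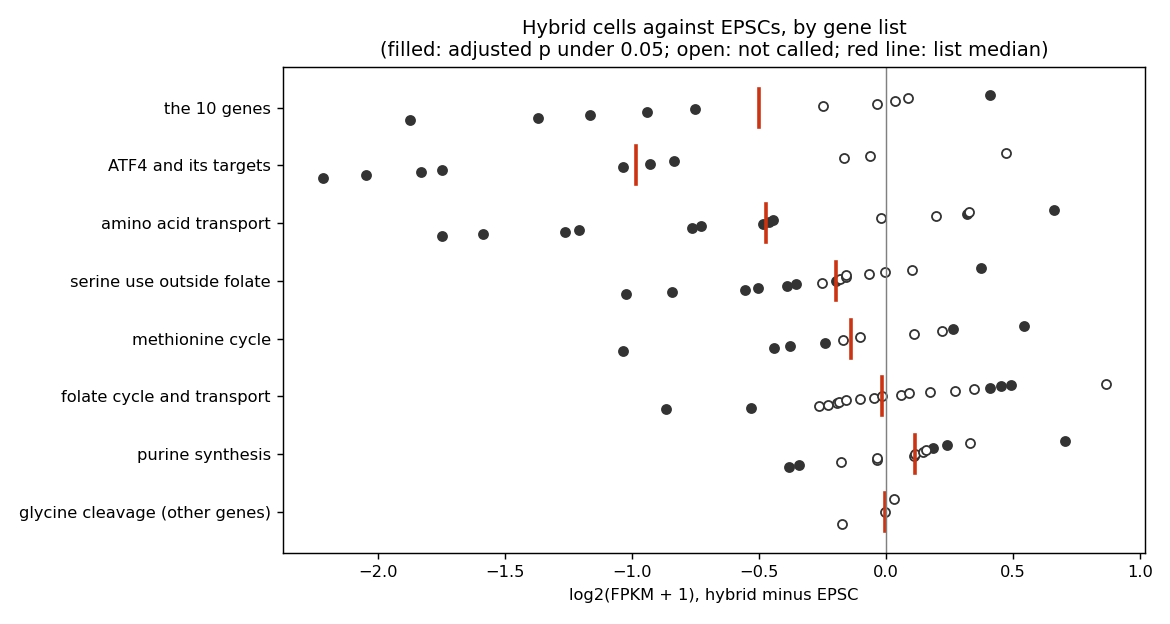
Log2 differences of FPKM + 1 between hybrid cells and EPSCs for the 10 genes and 7 wider lists, 1 point per gene with the list median as a red line; vertical offsets only separate points. Filled points passed an adjusted p of 0.05. ATF4 and its targets have the lowest median (−0.98), and purine synthesis lies at 0.12.

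Between EPSCs and NSCs, purine synthesis, ATF4 and its targets, the methionine cycle and the 3 other glycine cleavage genes had medians above 0 both as deposited and under scaling. Of all genes, 45.2% were called higher and 41.0% lower as deposited, and 30.7% higher and 56.8% lower under scaling, which moved the median of all genes from 0.08 to −0.48. Purine synthesis had 12 of 13 genes higher and 1 lower (median 1.24, against 0.08 over all genes), ATF4 and its targets 9 of 10 higher and 1 lower (median 2.2) and the methionine cycle 8 of 10 higher and 2 lower (median 0.90). The folate list had 11 of 19 higher and 7 lower, transport 8 of 14 higher and 5 lower, serine use 7 of 15 higher and 6 lower, and 2 of 3 other glycine cleavage genes were higher. Under scaling, the medians of the folate list (0.46 as deposited), transport (0.48) and serine use (0.18) moved with it to −0.13, −0.06 and −0.42, each still above that of all genes, and those of purine synthesis, ATF4 and its targets and the methionine cycle to 0.66, 1.61 and 0.54, with 10, 8 and 6 genes called higher. The folate list then had 5 genes higher and 7 lower, transport 6 and 7, and serine use 7 and 8. The other glycine cleavage genes had 2 higher and 1 lower, with a median of 0.42 (1.02 as deposited). Folr1, a folate receptor, measured 0 and 0.0316 FPKM in NSCs and 30.2 and 35.4 FPKM in EPSCs, and the amino acid transporter Slc38a4 was listed at 0 in both NSC libraries and at 68.1 and 80.8 FPKM in EPSCs. Amt (log2 difference 2.01), Ahcy (1.98), Tars (2.21), Gart (1.95) and Nupr1 (6.68) were the most raised of their lists. Mthfd2l (−2.34), Sfxn3 (−2.70), Serinc5 (−4.08), Ahcyl2 (−1.82), Prps2 (−1.0) and Vldlr (−1.36) were the most lowered. Mthfd2l, a mitochondrial paralogue of Mthfd2, measured 7.47 and 8.55 FPKM in NSCs, 0.754 and 0.788 in EPSCs, 0.816 and 0.689 in hybrid cells and 1.99 and 2.30 in ESCs.

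Fibroblast markers, listed here for the feeder cells, also differed between the groups. The list is not particular to feeder cells, since the study names Postn for EPSCs and feeder-free NSCs held more Prrx1 (6.36 and 7.70 FPKM), Col5a1 and S100a4 than ESCs did (Prrx1 0.735 and 0.892 FPKM). The 15 fibroblast markers summed to 162 and 165 FPKM in ESCs, 55.7 and 51.6 FPKM in NSCs, where 3 were at 0 in both libraries, 267 and 264 FPKM in EPSCs and 573 and 455 FPKM in hybrid cells. Fn1 made up 140 and 142 FPKM of the ESC sums, 25.9 and 23.9 of the NSC sums, 157 and 162 of the EPSC sums and 171 and 164 of the hybrid sums. The other 14 markers summed to 21.2 and 23.2 FPKM in ESCs, 29.8 and 27.7 in NSCs, 109 and 102 in EPSCs and 402 and 292 in hybrid cells, a split made after the values were seen. All 15 had a higher mean in hybrid cells than in EPSCs. Of these, 14 were called higher (median log2 difference 1.37), against 22.5% of all genes tested (median 0). Their part in the differences of the 10 genes was not tested.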

How the data were processed

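Poly-A RNA of 8 libraries was sequenced in paired ends. The authors trimmed reads with skewer, aligned them with STAR 2.7.9a to mm10 and ran Cuffnorm (Cufflinks 2.2.1). FPKM per gene and library were deposited by the authors; the annotation, strand setting and library normalization are not given in the sources used here. Groups came from the sample labels. The 10 genes and all lists were chosen with earlier results of these data known.

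Values were compared as log2(FPKM + 1) with limma 3.58.1 (R 4.3.3; lmFit, contrasts.fit and eBayes with trend), 4 groups in 1 fit with 4 residual and 3.25 prior degrees of freedom. Genes entered if any group's mean FPKM reached 1 (13239 genes), and two-sided p-values were adjusted over all of them by Benjamini-Hochberg, with calls at 0.05. The fit was run on simulated data with independent noise and few changed genes, which checks the code only and not the calls given here. Log2 differences are on the log2(FPKM + 1) scale and understate low genes, and values given as a fold are ratios of group mean FPKM with nothing added. Ratios of 2 genes within a library were compared by exact permutation. Depth was derived from 2247 single-transcript genes and an assumed fragment length of 200 nucleotides, and 65.7% to 74.6% of low values fell within 0.05 of a whole fragment, too few for a count test.

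All 10 genes are named. Of each other list, the rule named the most raised and the most lowered gene among those called between EPSCs and NSCs and between hybrid cells and EPSCs; for pattern, it named the 3 genes nearest to Tdh and to the member with the largest fall from NSCs to EPSCs. As deposited, no member fell, so Shmt2, with the smallest rise, was used. Under scaling, Phgdh (−0.24) and Shmt2 (−0.33) fell. Atf4, Amt between hybrid cells and EPSCs, and the overlapping genes were named after their values were seen. Gene positions are from GENCODE M21 and promoters from RefSeq on GRCm38.p6, scripts ran in Python 3.11.15, and other settings are given in the closing section.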

Additional observations from a re-analysis of the deposited data

How the results depend on the processing

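Alternatives covered the constant added to FPKM (0.1 and 3), scaling of each library to 1000000, quantile normalization, the low-value filter, a fit of only the compared groups, eBayes without trend, the replicate block and each library left out. Between hybrid cells and EPSCs, 120 of 130 alternative values kept direction and call; the numbers were 125 of 130 for hybrid cells against NSCs, 126 of 130 for EPSCs against NSCs, 116 of 130 for EPSCs against ESCs, 121 of 130 for ESCs against NSCs and 147 of 150 for the midpoint. Scaling moved the median of all genes from 0.06 to −0.51, 0.08 to −0.48 and 0.03 to −0.47 for hybrid cells, EPSCs and ESCs against NSCs, and the share of higher calls from 51.47% to 34.48%, 52.42% to 35.06% and 50.54% to 34.17%; at the midpoint it moved from 0.00 to −0.27 and from 50.08% to 33.39%. Under scaling, log2 differences turned to −0.0796 (Psat1) and −0.0345 (Mthfd2) for hybrid cells against NSCs, −0.24 (Phgdh) and −0.33 (Shmt2) for EPSCs against NSCs, and −0.39 (Psat1), −0.0313 (Psph) and −0.23 (Mthfd1) for ESCs against NSCs, and positions to −0.117 (Psat1) and −0.0186 (Mthfd2), with a median of 0.860 over the same 8 genes, of which Psat1, Psph and Mthfd1 then fell short of the parental difference of 1 (median of the other 5, 1.01). Quantile normalization gave −0.0464 (Psat1, hybrid cells against NSCs), −0.18 (Phgdh) and −0.16 (Shmt2, both EPSCs against NSCs) and −0.23 (Psat1, ESCs against NSCs). Of the 10 genes, those called lower numbered 2 (scaling) and 1 (quantile) instead of 0 for EPSCs against NSCs, 2 (scaling) instead of 1 for EPSCs against ESCs, and 3 (scaling), 2 (quantile) and 1 (only these groups in the fit) instead of 0 for ESCs against NSCs. In the same order, calls over all 13239 genes were 11578 (35.06% of them higher, the rest lower) and 11371 (52.7%) for EPSCs against NSCs. They were 7974 (50.19%) for EPSCs against ESCs. For ESCs against NSCs they were 11385 (34.17%), 11185 (52.06%) and 11800 (50.97%). With only hybrid cells and EPSCs in the fit, 0 of the 10 genes were called higher instead of 1, against 1434 of all 13239 genes. Under the fold rule, thresholds of 2 and 2 gave 3 lower genes for hybrid cells against EPSCs (2.14% of all genes) and 5 higher for hybrid cells against NSCs (23.0%), 8 for EPSCs against NSCs (22.6%), 1 for EPSCs against ESCs (6.45%) and 5 for ESCs against NSCs (20.5%), and scaling gave 1, 2 and 1 higher for hybrid cells, EPSCs and ESCs against NSCs (10.3%, 9.90% and 9.87% of all genes). Leaving out each library gave 0 to 1 genes higher in hybrid cells than in EPSCs, 1 to 2 lower in EPSCs than in ESCs, a median position of 0.896 to 0.937, and hybrid-minus-EPSC values of −0.0479 to 0.22 for Tdh and −0.0352 to 0.11 for Gldc. The cause was not tested. With 2 libraries per group, single deviating libraries could not be tested.

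Replicate numbers are shared between groups, but no source says that they pair the libraries, and deviations of same-numbered libraries correlated at −0.112 to 0.280. With the replicate block, 7 of the 10 genes were called between hybrid cells and EPSCs (Gcat, adjusted p = 0.0302 by limma, besides the 6), and the calls over all genes were 6060 instead of 5881; of 60 values for the 10 genes, 1 changed its call. With the numbers of the ESC libraries crossed, an alternative added after seeing the data, 8 of the 10 genes and 11251 of all genes were called between ESCs and NSCs.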
